A study of Homo sapiens with 4 samples.

Results

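The genes around CDKN2A in chromosome band 9p21 were followed in 2 breast cancer cell lines. The 10 genes are CDKN2A, CDKN2B, MTAP, KLHL9, MIR31HG, DMRTA1, IFNE, ELAVL2 and the flanking genes FOCAD and MLLT3. The genes were chosen by their place around CDKN2A, with results of these data already known, and every probe set that lists one of them alone was taken without an intensity filter. Each of the 10 genes had 1 such probe set, out of 19460 single-gene probe sets covering 18417 genes. The 4 arrays came from 4 groups of 1: MDA-MB231 cells that express FBP1 as stable clones, MDA-MB231 control cells, Hs578T cells that express FBP1 as stable clones, and Hs578T control cells. Both are established human lines classed by the labels as basal-like breast cancer, and FBP1 encodes the gluconeogenic enzyme fructose-1,6-bisphosphatase. The construct, its promoter and the number of clones behind each array were not stated, and neither was any vector in the control cells. All cells were harvested in log-phase growth in medium with serum.

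The band 9p21 is known for tumour suppressors that sit side by side. CDKN2A gives rise to p16INK4a, which inhibits the kinases CDK4 and CDK6 and so holds back phosphorylation of the retinoblastoma protein, and to ARF, which binds MDM2 and stabilises p53. CDKN2B encodes p15INK4b, a related inhibitor of the same kinases, and MTAP encodes the methionine salvage enzyme methylthioadenosine phosphorylase. Deletions of the band are frequent in cancer and often take several of these genes at once, and MDA-MB231 is catalogued as a line that has lost CDKN2A. Copy number was not measured here, and a dim probe set does not tell a missing gene from a silent one.

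The sequences before the starts of 4 of the genes show how differently these neighbours are built. KLHL9 and MIR31HG are shown because they had the largest differences between the lines, CDKN2A because it has separate starts for ARF and p16INK4a, and IFNE because its window holds the fewest CpG sites of the 10 genes. Each is the 250 bases before a start in RefSeq, build GRCh38.p14, minus strand, written 5′ to 3′ with CpG sites in capitals. The windows are KLHL9 at chr9:21335405-21335654, MIR31HG at chr9:21559799-21560048, the upstream CDKN2A start at chr9:21995325-21995574, the downstream CDKN2A start at chr9:21974858-21975107 and IFNE at chr9:21482314-21482563.
KLHL9: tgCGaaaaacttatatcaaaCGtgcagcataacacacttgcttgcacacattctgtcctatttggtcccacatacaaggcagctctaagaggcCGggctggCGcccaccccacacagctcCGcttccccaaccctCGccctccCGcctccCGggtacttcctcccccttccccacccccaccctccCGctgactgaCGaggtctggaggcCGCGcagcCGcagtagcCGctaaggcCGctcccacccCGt
MIR31HG: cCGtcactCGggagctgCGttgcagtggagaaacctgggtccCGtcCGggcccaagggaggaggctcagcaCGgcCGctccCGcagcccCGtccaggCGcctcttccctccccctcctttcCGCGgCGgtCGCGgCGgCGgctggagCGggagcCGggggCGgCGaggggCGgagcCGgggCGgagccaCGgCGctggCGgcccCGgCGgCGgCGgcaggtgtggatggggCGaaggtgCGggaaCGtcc
CDKN2A, upstream start: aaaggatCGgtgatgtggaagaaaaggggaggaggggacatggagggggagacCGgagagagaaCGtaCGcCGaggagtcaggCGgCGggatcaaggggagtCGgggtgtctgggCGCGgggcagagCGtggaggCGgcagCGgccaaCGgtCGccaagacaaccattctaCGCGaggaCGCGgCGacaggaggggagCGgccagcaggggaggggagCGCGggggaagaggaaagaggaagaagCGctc
CDKN2A, downstream start: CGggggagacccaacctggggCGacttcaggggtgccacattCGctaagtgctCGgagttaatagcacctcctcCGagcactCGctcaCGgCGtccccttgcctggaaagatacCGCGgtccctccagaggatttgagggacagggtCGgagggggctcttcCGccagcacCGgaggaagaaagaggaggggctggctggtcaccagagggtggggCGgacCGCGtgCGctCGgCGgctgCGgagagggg
IFNE: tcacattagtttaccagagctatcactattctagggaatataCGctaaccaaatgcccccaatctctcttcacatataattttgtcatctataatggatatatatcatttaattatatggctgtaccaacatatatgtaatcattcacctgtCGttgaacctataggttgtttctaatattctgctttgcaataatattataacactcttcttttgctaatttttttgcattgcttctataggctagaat
The MIR31HG window holds 34 CpG sites and that of IFNE 2, with 16 before KLHL9. Before CDKN2A there are 24 at the upstream start and 20 at the downstream start. Over 35116 RefSeq windows of the same length the median was 11, and 93.2% held fewer than MIR31HG, whereas 14.7% held fewer than IFNE. The other members' windows held 35 CpG sites for FOCAD, 24 for MLLT3, 18 for CDKN2B, 13 for DMRTA1 and 11 for MTAP, and the 6 starts of ELAVL2 held 9 to 33. The letters GGGCGG, read on both strands, occurred in 42.6% of all windows and at least once before FOCAD, MLLT3, MIR31HG, MTAP, CDKN2B and DMRTA1, before the downstream start of CDKN2A and before 4 of the ELAVL2 starts. Those letters were not found before KLHL9, IFNE or the upstream start of CDKN2A. The letters TATAAA occurred in 10.7% of all windows, and among the members before MTAP and 1 start of ELAVL2. These are properties of the reference genome and were not measured in the cells. MIR31HG is a long noncoding RNA gene that hosts the microRNA miR-31, whose own probe set is described further on. The mature miR-31-5p, at chr9:21512158-21512178 on the minus strand of the same build, is printed with its seed, bases 2 to 8, in capitals.
miR-31-5p: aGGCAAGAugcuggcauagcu
No other mature microRNA of the 2370 names in the RefSeq table has this seed.

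The arrays had near-equal medians, from 7.83 to 7.86 log2 over all probe sets. Across probe sets, which are not independent replicates, arrays of 1 line correlated at 0.9942 to 0.9962 and arrays of different lines at 0.9613 to 0.9637. The files give no detection call, so the level of 360 olfactory receptor probe sets was taken as a guide to background. Its 95th percentile was 7.14 and 7.04 log2 on the FBP1 and control arrays of MDA-MB231, and 7.28 and 7.15 on those of Hs578T. Values below it on an array are called dim. FBP1 itself read 13.07 in the FBP1 array and 9.83 in the control array of MDA-MB231, and 13.35 and 6.35 in those of Hs578T, so it was higher where the labels place the construct. Of the basal markers, EGFR read 10.63 to 11.05 on the 4 arrays and KRT14 8.45 to 9.62, while KRT5 was dim on all 4, at 6.80 to 6.93. The mesenchymal marker VIM read 13.71 to 13.72, and 3 of 4 leukocyte markers, PTPRC among them, were dim on all arrays. The monocyte marker CD14 read 7.98 and 8.30 in MDA-MB231 and 7.44 and 7.41 in Hs578T (limma, adjusted p = 0.00667). The lines differed in other markers: the epithelial gene EPCAM read 9.43 and 9.47 in MDA-MB231 and 6.26 and 6.56 in Hs578T, and the mesenchymal cadherin gene CDH2 7.71 and 7.38 in MDA-MB231 and 13.20 and 13.13 in Hs578T. By limma, 1 of 7 luminal markers was lower and 2 higher in MDA-MB231, and 2 of 4 mesenchymal markers were lower. The part of such differences in the values of the 9p21 genes was not tested.

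Of the 10 genes, 6 were lower in MDA-MB231 than in Hs578T, by at least 2-fold in both the FBP1 pair and the control pair of arrays, and 0 were higher by that much. They are FOCAD, KLHL9, MIR31HG, IFNE, MTAP and CDKN2B. The count uses the measured values, dim ones included: IFNE was dim on all 4 arrays, which leaves 5 genes without it, and KLHL9, MIR31HG and MTAP were dim on both MDA-MB231 arrays. Over all single-gene probe sets, 3.86% were at least 2-fold lower in MDA-MB231 in both pairs and 3.91% higher. The members were chosen with this comparison in view, so their count is a description, and it was not tested. The median difference of the 10 genes, MDA-MB231 minus Hs578T, was −1.94 log2, against −0.02 over all probe sets. Both MDA-MB231 arrays lay below both Hs578T arrays for 8 of the 10 genes, against 36.0% of all probe sets. The arrays hold RNA of whole cultures, in which fewer cells with a transcript and less of it per cell cannot be told apart.

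**Figure D1:**
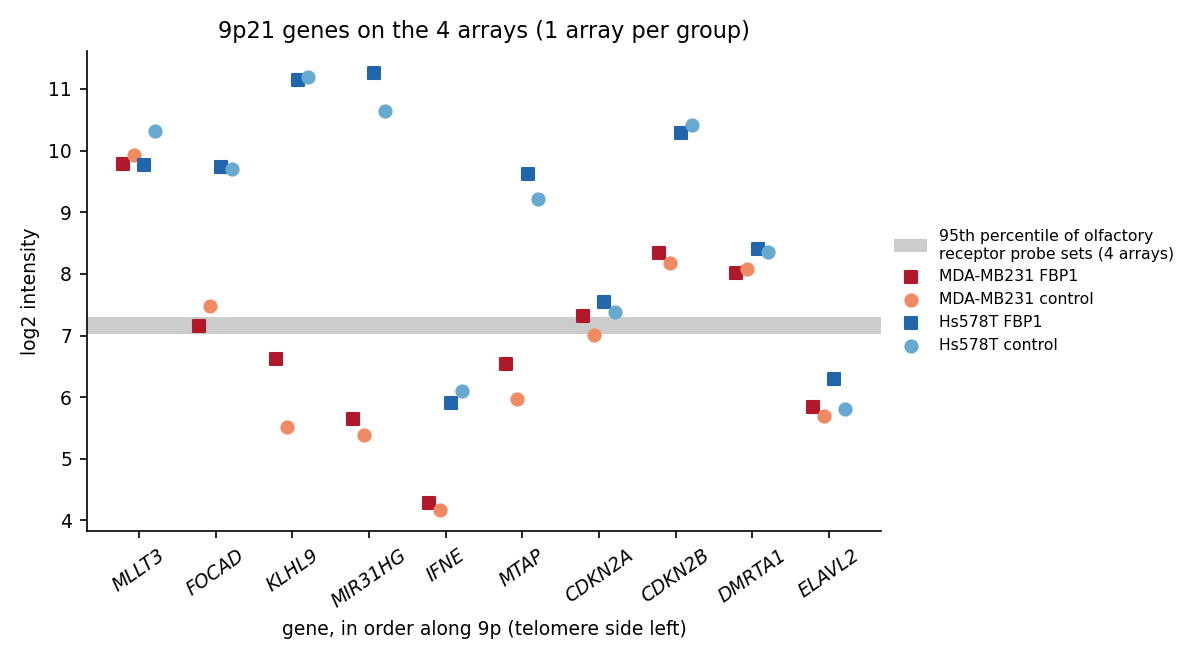
Log2 intensity of the 10 genes on each array (1 point per array, no error bars because each group has 1 array), in their order along 9p, with the range of the olfactory receptor 95th percentile shaded. KLHL9, MIR31HG and MTAP lie below the shaded range in MDA-MB231 and above it in Hs578T, while MLLT3 and DMRTA1 lie above it in both lines.

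CDKN2A and CDKN2B encode the cell cycle inhibitors of the band. CDKN2A read 7.32 and 7.00 log2 in the FBP1 and control arrays of MDA-MB231, against 7.55 and 7.38 in those of Hs578T. The MDA-MB231 control value lay below the dim level of its array and the other 3 values above theirs, and the difference between the lines averaged −0.30. The single CDKN2A probe set lists transcripts from both starts, so p16INK4a and ARF were not measured apart. CDKN2B read 8.34 and 8.17 in MDA-MB231 with FBP1 and as control, against 10.29 and 10.42 in Hs578T. Its line difference was −1.95 in the FBP1 pair and −2.25 in the control pair, a mean of 4.28-fold lower in MDA-MB231, where the level stayed above the dim level. A level above it is not by itself a sign of transcription, since probe sets differ in their own background.

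MTAP read 6.54 and 5.97 log2 in MDA-MB231 with FBP1 and as control, against 9.62 and 9.22 in Hs578T. Both MDA-MB231 arrays were dim and both Hs578T arrays were not. The measured line difference averaged −3.17 log2. Because the MDA-MB231 values are only bounds, Hs578T was at least 5.03-fold higher, taking the dim level in place of the MDA-MB231 values.

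KLHL9 and MIR31HG had the widest gaps between the lines. KLHL9, a substrate adaptor of CUL3 ubiquitin ligases that acts with KLHL13 in mitosis, read 6.61 and 5.51 log2 in MDA-MB231 with FBP1 and as control. In Hs578T it read 11.15 and 11.19. Its line difference was −4.53 in the FBP1 pair and −5.69 in the control pair. Against the dim level this is at least 16.9-fold higher in Hs578T. MIR31HG read 5.65 and 5.38 in MDA-MB231 and 11.27 and 10.65 in Hs578T, differences of −5.62 and −5.27, or at least 14.6-fold higher in Hs578T.

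IFNE, an epithelial type I interferon, was dim on all 4 arrays, at 4.28 and 4.18 log2 in MDA-MB231 and 5.91 and 6.09 in Hs578T. No fold is given for it, although both MDA-MB231 values lay below both Hs578T values. ELAVL2, which encodes a neuronal RNA-binding protein, was dim on all arrays too, at 5.83 and 5.69 in MDA-MB231 and 6.30 and 5.82 in Hs578T. Of the 10 genes, 5 were dim on both MDA-MB231 arrays, against 25.2% of all probe sets, and 2 on both Hs578T arrays, against 26.6%.

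FOCAD, whose focadhesin protein is known to act with the SKI complex of RNA surveillance, read 7.16 and 7.48 log2 in MDA-MB231 and 9.73 and 9.69 in Hs578T. Its mean difference was −2.39, or 5.25-fold lower in MDA-MB231, with the MDA-MB231 FBP1 value 7.16 against a dim level of 7.14, so that the size of this fold is uncertain. MLLT3, a chromatin reader of the super elongation complex and the next measured gene from FOCAD on its telomere side, read 9.78 and 9.92 in MDA-MB231 and 9.77 and 10.32 in Hs578T, so the lines overlapped. DMRTA1, a DM-domain transcription factor gene and the next measured gene from CDKN2B on its centromere side, read 8.02 and 8.08 in MDA-MB231 and 8.40 and 8.36 in Hs578T, a mean difference of −0.33.

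In the order that RefSeq gives on GRCh38.p14, the 6 members with values at least 2-fold lower in MDA-MB231 all lie between FOCAD and CDKN2B. This stretch was picked out after the values were seen, with its ends at the outermost of these members. It holds 20 measured genes, of which 12 were dim on all 4 arrays, 11 of those interferon genes. Of the 8 others, FOCAD, HACD4, KLHL9, MIR31HG, MTAP and CDKN2B had measured values at least 2-fold lower in MDA-MB231 in both pairs, and MIR31 and CDKN2A did not. Of these, HACD4, KLHL9, MIR31HG and MTAP were dim on both MDA-MB231 arrays, so that their folds are bounds. They count among the 8 only through their Hs578T levels, so the 8 favour genes lower in MDA-MB231. Over all 20 genes, dim ones included, 7 were at least 2-fold lower in MDA-MB231 in both pairs. The share over all genes was 3.96%, and the count in the stretch was not tested. In the 5 measured genes on each side, none was at least 2-fold apart. Their mean differences were −0.61 to 0.00 on the telomere side and −0.33 to 0.47 on the centromere side. Because of how the ends were set, the nearest members, MLLT3 and DMRTA1, could not be among the genes lower by that much. By limma, DENND4C (−0.61, adjusted p = 0.00536) and RPS6 (−0.27, adjusted p = 0.0184) on the telomere side were lower in MDA-MB231. CAAP1 on the centromere side was higher (limma, adjusted p = 0.0191), and the rest of these flanking genes were not called. Genes farther out that were at least 2-fold apart follow below.

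**Figure D2:**
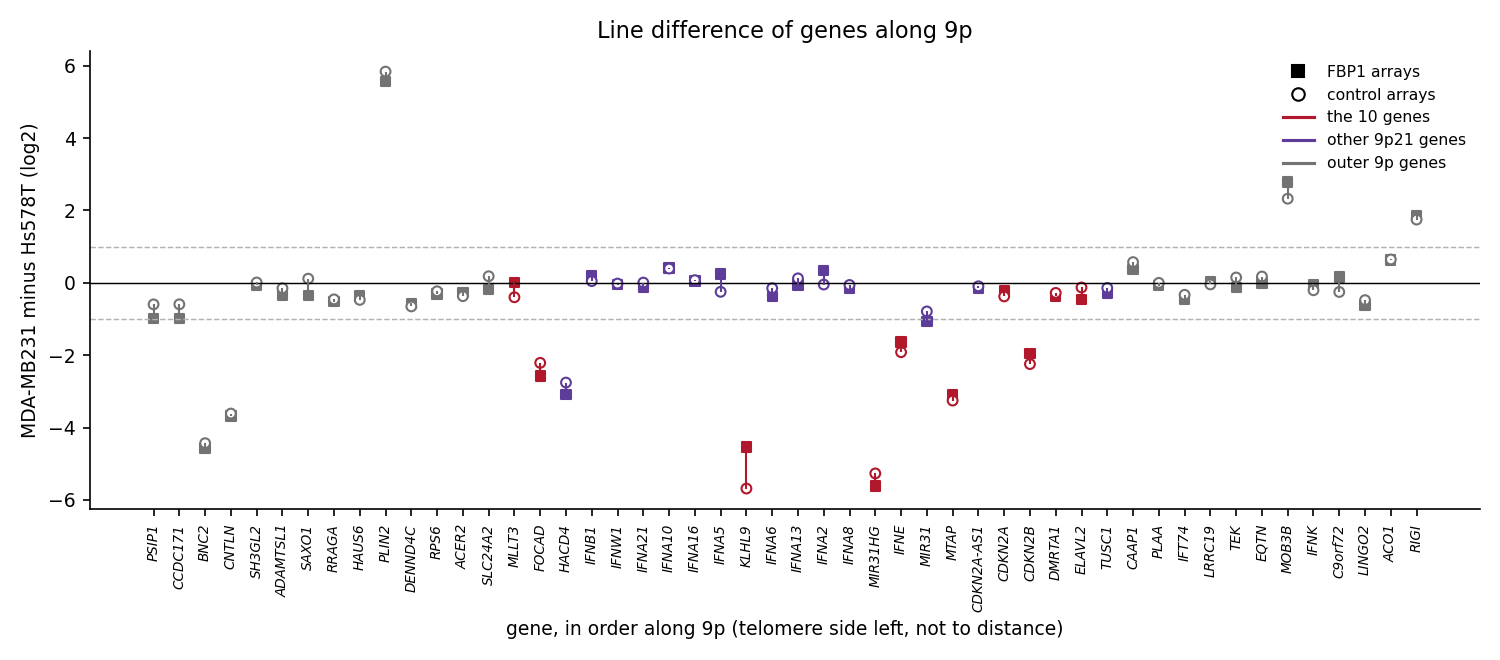
Log2 intensity of MDA-MB231 minus Hs578T for 50 measured genes in their order along 9p, with the FBP1 pair as squares, the control pair as open circles and 2-fold as dashed lines. FOCAD, KLHL9, MIR31HG, IFNE, MTAP and CDKN2B lie below the lower dashed line in both pairs, as do HACD4, BNC2 and CNTLN, while PLIN2, MOB3B and RIGI lie above the upper one.

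Of 23 other 9p21 genes listed, 14 were measured by a probe set of their own. In both pairs of arrays, the measured value of 1 of them was at least 2-fold lower in MDA-MB231 and of 0 higher, against 3.96% and 3.88% of all genes. By limma over all single-gene probe sets, 2 of these 14 genes were lower in MDA-MB231 and 1 higher, against 16.8% and 18.9% of all genes. HACD4, a dehydratase gene of very-long-chain fatty acid elongation beside FOCAD, read 4.67 and 4.56 log2 in MDA-MB231 and 7.76 and 7.32 in Hs578T. Its Hs578T level was at least 1.36-fold higher against the dim level, with an adjusted p of 3.36e-05 by limma. MIR31, the microRNA gene inside MIR31HG, read 6.36 and 6.33 in MDA-MB231 and 7.43 and 7.12 in Hs578T (limma, adjusted p = 0.00201). The Hs578T control value of MIR31 was dim as well, and a probe set of this kind can pick up the precursor or its host transcript. IFNA10 was the 1 higher gene, at 4.33 and 4.23 in MDA-MB231 and 3.92 and 3.84 in Hs578T, all of them dim. The 10 interferon alpha, beta and omega genes lay between 3.49 and 5.89 on the 4 arrays, and their line differences ran from −0.27 to 0.40. Interferon alpha genes are near-identical copies, so their values are uncertain, and 4 more probe sets that list several of them at once were dim on every array as well, at 4.44 to 5.81.

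Farther out on 9p, genes differed between the lines in both directions. Of 26 measured outer genes, 2 were lower in MDA-MB231 and 3 higher by measured values at least 2-fold apart in both pairs. By limma, 10 were lower and 5 higher, against 16.8% and 18.9% of all genes. BNC2, a zinc finger gene, read 6.14 and 5.38 log2 in MDA-MB231 and 10.71 and 9.81 in Hs578T, and the centrosomal gene CNTLN 5.62 and 5.58 against 9.30 and 9.19. Both were dim on both MDA-MB231 arrays, and against the dim level Hs578T was at least 8.96-fold higher for BNC2 and 4.45-fold for CNTLN. Their limma adjusted p-values were 6.54e-06 and 8.61e-06. PLIN2, which coats lipid droplets, differed in the opposite direction, at 11.96 and 12.05 in MDA-MB231 and 6.39 and 6.22 in Hs578T (limma, adjusted p = 5.77e-06). MOB3B, a kinase activator gene, read 9.27 and 9.13 in MDA-MB231 and 6.49 and 6.81 in Hs578T. Both genes were dim in Hs578T, and against the dim level PLIN2 was at least 27.7-fold and MOB3B at least 3.96-fold higher in MDA-MB231. RIGI, the viral RNA sensor, was 3.49-fold higher in MDA-MB231 and not dim on any array. The limma adjusted p was 8.53e-05 for MOB3B and 9.2e-05 for RIGI.

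The partners of the 10 gene products were then read from lists that were drawn up with earlier results of these data known. Over all genes, limma called 16.8% lower and 18.9% higher in MDA-MB231. Among 18 measured genes of the CDK4/6 and retinoblastoma pathway, 2 were lower and 7 higher, with a median difference of 0.23 log2. CCND2 encodes cyclin D2, a partner of CDK4 and CDK6. It read 11.45 and 11.44 in MDA-MB231 and 7.28 and 8.04 in Hs578T (limma, adjusted p = 5.63e-05). Its value on the Hs578T FBP1 array was dim. CCND3 averaged 1.04 log2 higher in MDA-MB231, the transcription factor gene E2F3 0.80 and the retinoblastoma-like gene RBL1 0.66, with limma adjusted p-values of 0.000381, 0.0021 and 0.00309. CDK4 and CDK6, the kinases that p16INK4a and p15INK4b bind, differed by 0.09 and −0.12 and were not called.

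Of 6 measured genes on the ARF and p53 side, 2 were higher in MDA-MB231 and 1 lower by limma. They were MDM4, a p53 inhibitor, at 1.30 log2 (adjusted p = 0.000337), EZH2, which represses the CDKN2A locus through Polycomb, at 0.66 (0.00315) and NPM1, which holds ARF in the nucleolus, at −0.23 (0.0277). MDM2, the protein that ARF binds, differed by 0.23 and was not called (limma, adjusted p = 0.0773). Of the 14 genes of methionine salvage and the PRMT5 complex, which is sensitive to the MTAP substrate, 3 were lower and 4 higher by limma, with a median of −0.03. PRMT5 itself was 0.55 higher in MDA-MB231 (adjusted p = 0.00642), the PRMT5 adaptor gene CLNS1A 0.71 lower (0.00178), the salvage enzyme gene ENOPH1 0.53 higher (0.0101) and the kinase gene RIOK1 0.50 higher (0.00837).

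KLHL13, the partner of KLHL9, was lower in MDA-MB231 as well, at 6.84 and 6.58 log2 against 8.44 and 8.40 in Hs578T (limma, adjusted p = 0.000167). Both MDA-MB231 values of KLHL13 were dim. Of the 5 genes of this ubiquitin ligase list, RBX1 was also lower, by a mean of −0.36, and the substrate AURKB higher, by 0.48, with limma adjusted p-values of 0.0118 and 0.00683. All 4 genes listed with the SKI complex were called, 3 of them lower in MDA-MB231, led by SKIC3 at −0.81 (limma, adjusted p = 0.00117). The complex genes SKIC2 and SKIC8 were at 0.41 and −0.37, and HBS1L, also on this list, at −0.31. The receptor genes for type I interferon, IFNAR1 and IFNAR2, were lower by −0.64 and −0.57 and the receptor kinase gene JAK1 by −0.31, giving 3 of 5 measured genes lower and 0 higher. Beside these counts, limma called 16.8% of all genes lower and 18.9% higher, and lists this small were not tested as sets.

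Of 11 genes of the super elongation complex and DOT1L, 2 were lower and 3 higher by limma, the widest being EAF1 at 0.53, MLLT10 at 0.51, DOT1L at 0.42 and ELL2 at −0.32. Of the relatives of ELAVL2 and DMRTA1, 3 ELAVL genes and 6 DMRT genes were measured and 0 were called by limma in this comparison, with unadjusted p under 0.05 for 0 and 1 of them. Over all these partner lists and the cell type markers, 19 of 90 genes were lower and 21 higher in MDA-MB231, against 16.8% and 18.9% of all genes.

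The next comparison was FBP1-expressing against control cells within each line. With 1 array per group it allows no test, and genes were counted at 1.5-fold. In MDA-MB231, KLHL9 was the 1 gene of the 10 at least 1.5-fold higher with FBP1, against 0.375% of all single-gene probe sets, and 0 were lower by that much, against 0.360%. KLHL9 was 2.15-fold higher (1.10 log2) and stayed dim on both MDA-MB231 arrays, so the size of this ratio is uncertain. KLHL9 was known to differ when the genes were chosen. MTAP came next at 1.49-fold (0.58 log2), also between dim values, followed by CDKN2A at 0.32, MIR31HG at 0.27, CDKN2B at 0.17, ELAVL2 at 0.15 and IFNE at 0.10. FOCAD, MLLT3 and DMRTA1 were at −0.33, −0.15 and −0.06. The central 95% of all probe sets ran from −0.33 to 0.35 in this line, so KLHL9 and MTAP lay outside it.

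In Hs578T, MIR31HG was the 1 gene at least 1.5-fold higher with FBP1, at 1.53-fold (0.62 log2), against 1.36% of probe sets, and 0 were lower by that much, against 1.56%. ELAVL2 was at 0.48 between dim values, MTAP at 0.40 and CDKN2A at 0.17. MLLT3 was lowest at −0.55, which is 0.682 times the control level. IFNE and CDKN2B were at −0.18 and −0.13, and KLHL9, FOCAD and DMRTA1 lay within 0.05 of 0. The central 95% of probe sets ran from −0.48 to 0.47, and MIR31HG, ELAVL2 and MLLT3 lay outside it. The median over the 10 genes was 0.16 in MDA-MB231 and 0.04 in Hs578T, against 0.00 and 0.03 over all probe sets.

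**Figure D3:**
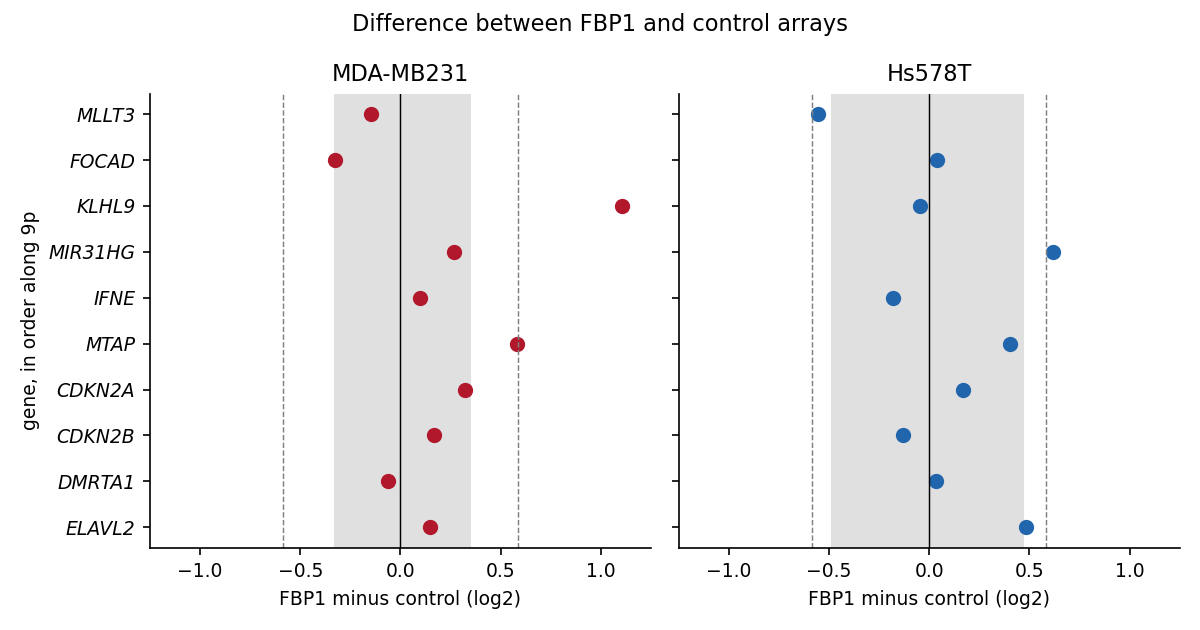
FBP1 minus control on the log2 scale for the 10 genes in MDA-MB231 (left) and Hs578T (right), 1 point per gene from 1 pair of arrays, with the central 95% of all single-gene probe sets shaded and 1.5-fold as dashed lines. In the MDA-MB231 panel KLHL9 stands at 1.10 and MIR31HG at 0.27, and in the Hs578T panel they stand at −0.05 and 0.62.

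A limma fit over both lines, with the cell line as a block, called 0 of 19460 probe sets for FBP1 (0%), FBP1 itself included, with a smallest adjusted p of 0.937. At an unadjusted p under 0.05 it gave 1015 probe sets, or 5.22%, and 4 of the 10 members, MLLT3, MIR31HG, MTAP and ELAVL2. The members were chosen with results of these data known, so that count is a description. For the members, the mean FBP1 effects of the fit with standard errors were 0.53 ± 0.26 log2 for KLHL9, 0.49 ± 0.11 for MTAP, 0.44 ± 0.13 for MIR31HG, 0.32 ± 0.13 for ELAVL2, 0.25 ± 0.11 for CDKN2A and −0.35 ± 0.13 for MLLT3. FOCAD was at −0.15 ± 0.13, and IFNE, CDKN2B and DMRTA1 lay within 0.05 of 0. The limma adjusted p was 0.937 to 0.997 for the 10 genes. The fit has 1 residual degree of freedom, and its error is the disagreement between the lines, not the spread of repeated cultures.

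Other genes like KLHL9, dim in the MDA-MB231 control and at least 16-fold brighter in the Hs578T control, were set beside it. There were 56 such genes, MIR31HG among them, and 40 were above control in MDA-MB231 with FBP1, with a median of 0.21 log2 and a range of −0.79 to 1.80. Of 4666 other genes dim in the same control array, 53.0% were above it, with a median of 0.01. KLHL9 had the 4th largest value of the 56, after the histone genes H2BC7 (1.80) and H4C5 (1.80) and the receptor auxiliary gene NETO2 (1.61), and MIR31HG the 24th. On the linear scale, the excess of the FBP1 array over control equalled 2.23% of the Hs578T control level for KLHL9 and 0.528% for MIR31HG, against a median of 0.393% and a range of −0.873% to 3.79% over the 56. For H2BC7, H4C5 and NETO2 it was 2.10%, 3.32% and 1.72%. MTAP, whose gap between the control arrays was 3.25 log2 and so under 16-fold, had 5.17%. The mirror set was 31 genes dim in the Hs578T control and at least 16-fold brighter in the MDA-MB231 control. It had 22 above control in Hs578T with FBP1, with a median of 0.13. Of 4968 other genes dim in that Hs578T control array, 63.4% were above it, with a median of 0.06. Among the 31, the largest values were those of IL1B (1.36), PLAC8 (1.16), ANXA3 (0.83) and SLC14A1 (0.82). Both sets were chosen with the same control array that enters the difference, and their part in the KLHL9 value was not tested.

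**Figure D4:**
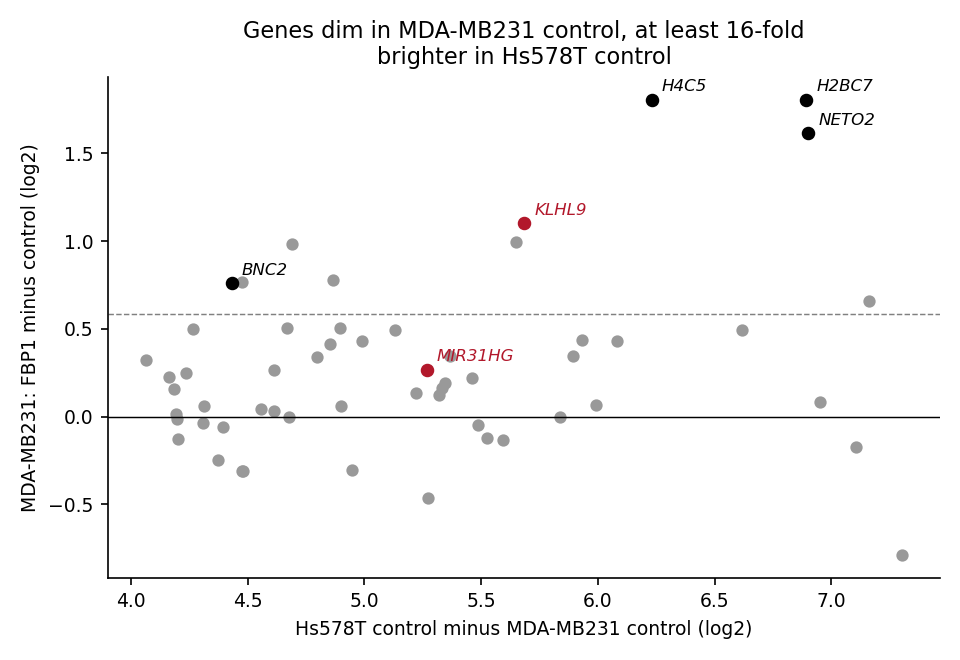
FBP1 minus control in MDA-MB231 against Hs578T control minus MDA-MB231 control, both log2, for the 56 genes dim in the MDA-MB231 control and at least 16-fold brighter in the Hs578T control, with 1.5-fold as a dashed line. KLHL9 lies at 1.10, below H2BC7, H4C5 and NETO2, and MIR31HG at 0.27.

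Among all genes, the levels of KLHL9 over the 4 arrays were nearest to those of PLPPR4, FAR2 and NRIP3, with Euclidean distances of 0.65, 0.79 and 0.84 log2. FAR2, a fatty acyl-CoA reductase gene, read 6.70 and 5.70 in MDA-MB231 with FBP1 and as control, and 11.89 and 11.35 in Hs578T. The levels of CDKN2A were nearest to those of TBC1D26, PHYHIP and SPOCK2, at distances of 0.11, 0.11 and 0.17, with all 4 values of each between 7.03 and 7.63. The likeness rests on 4 arrays from 2 lines.

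Apart from the members, FBP1 and control arrays differed by at least 1.5-fold in few of the listed genes. Over all genes, 0.353% were that much higher and 0.337% lower with FBP1 in MDA-MB231, and 1.40% higher and 1.57% lower in Hs578T. BNC2 was higher with FBP1 in both lines, at 0.76 log2 in MDA-MB231, where it was dim, and 0.90 in Hs578T. CCND2 was lower in Hs578T, at −0.76, where its FBP1 value was dim, so the size is uncertain. KRT14 was higher in Hs578T, at 0.77. None of the 14 other 9p21 genes differed by this much in either line, and the interferon alpha, beta and omega genes ran from −0.10 to 0.43 in MDA-MB231 and from −0.09 to 0.43 in Hs578T. CDKN1A, the p21 inhibitor of cyclin-dependent kinases and a p53 target, was at −0.29 in MDA-MB231 and −0.56 in Hs578T. It fell short of 1.5-fold in both lines.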

How the data were processed

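Total RNA from 4 cultures, 1 per line and construct, was measured on Affymetrix arrays. The authors' deposited table holds log2 expression values of 33297 probe sets, from 2.40 to 14.81. Affymetrix Expression Console 1.1.2800.28061 was used, per the submitters' processing notes. No source used here names the summarization or normalization method. The range of the values shows the log2 scale. The array number limits the precision of every value.

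Gene names came from the platform annotation, which lists 1 gene for 19460, several for 1754 and none for 12083, and 19429 matched a current RefSeq gene. Gene order comes from RefSeq GRCh38.p14. The members and all lists were chosen with earlier results of these data known. All 10 members are named. Of other 9p21 and outer 9p genes, up to 8 each at least 2-fold apart in both pairs were named, of partner lists up to 4 called by limma, and any gene at 1.5-fold with FBP1, along with the 3 genes nearest to KLHL9 and to CDKN2A and the 4 largest FBP1 differences of each set of dim genes. MIR31, IFNA10, DENND4C, RPS6, CAAP1, CDK4, CDK6, MDM2, CDKN1A and some markers were added after their values were seen.

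The single-gene probe sets entered 1 limma 3.58.1 model of line plus construct in R 4.3.3, with an intensity trend and Benjamini-Hochberg adjustment at 0.05. On simulated data with 19460 probe sets and 50 line differences per size, the model recovered 12% of log2 differences of 0.5. It recovered 94% of 1 and 100% of 2 and 4, with 153 true and 8 false calls. The simulated noise was independent and drawn from limma's own variance estimates, with no line difference in the other probe sets. The arrays had 35.9% of probe sets called for line and no replicates, so these rates may not hold there. A gene in a list is its brightest probe set. In this model the p-values for line and for FBP1 rest on the same error. It comes from how far the FBP1 difference disagreed between the lines, with 1 residual degree of freedom. The limma prior added to it had a median of 4.95 degrees of freedom. With 1 culture per group, variation among replicate cultures could not enter these p-values. Alternatives covered scaling, probe set filter and averaging, thresholds, prior, block and construct term.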

Additional observations from a re-analysis of the deposited data

Results flagged for a closer look

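Among the 10 genes, 5 had FBP1 differences of opposite sign in MDA-MB231 and Hs578T, from 1 pair of arrays each, and no test was made of how the lines differed. The value in MDA-MB231 minus that in Hs578T was 1.15 log2 for KLHL9 (1.10 and −0.05). It was −0.36 for FOCAD (−0.33 and 0.04), 0.30 for CDKN2B (0.17 and −0.13), 0.28 for IFNE (0.10 and −0.18, all values dim) and −0.10 for DMRTA1 (−0.06 and 0.04). For comparison, FBP1 differences over all single-gene probe sets had a standard deviation of 0.17 in MDA-MB231 and 0.25 in Hs578T. Both differences of CDKN2B, IFNE and DMRTA1 were no larger in size than these. Of the 19460 probe sets, 9443 were above 0 and 10003 below in MDA-MB231. In Hs578T, 10843 were above and 8605 below. With signs this mixed, opposite signs are frequent without any relation between the lines. The share of probe sets with opposite signs was not counted, so the 5 genes are a description.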

How the results depend on the processing

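Under quantile normalization and median centring, the line and FBP1 differences of each of the 10 genes moved by at most 0.022 log2. These moves were within the spread between pairs or over probe sets. The arrays already had near-equal medians, so centring could move the values little. Averaging of probe sets could not move them, since each of these genes has 1 probe set. The filter at the 25th percentile left out IFNE and ELAVL2. The count of genes at least 1.5-fold higher with FBP1 in MDA-MB231 was 2 under quantile normalization and 2 under median centring, against 1, because MTAP lay at the threshold. With a 2-fold threshold, 0 genes were higher in Hs578T. The 6 genes at least 2-fold lower in MDA-MB231 numbered 5 with the filter and 4 at 4-fold. The 5 and 2 dim genes of MDA-MB231 and Hs578T were as many at the 90th percentile of olfactory receptor probe sets. Over all probe sets, the line calls ran from 6564 to 6991 and the FBP1 calls were 0 in each alternative, also without the cell line block, where the smallest adjusted p of limma was 1 and 85 probe sets had an unadjusted p under 0.05. The labels number no replicates, so the only pairing was the cell line block, which set each FBP1 array beside the control of its line. Each group has 1 array, and leaving 1 out leaves the model of line and construct no residual degrees of freedom; a fit of line alone on 3 arrays was not run. Values near the olfactory receptor level limit what KLHL9, MIR31HG, MTAP, IFNE, ELAVL2, CDKN2A and FOCAD can show.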
